A study of Xenopus laevis with 6 samples.

Results

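The genes vegt, eomes, tbxt and tbx6 encode T-box transcription factors of the early Xenopus laevis embryo, and their newly captured RNA was followed over the hours in which the zygotic genome becomes active. X. laevis is allotetraploid, so most genes have an L and an S copy (homeologs) on its long and short subgenomes. Members were all rows named for these genes with an L or S suffix: 7 of 8 possible names had a row, among 50489 rows in all. They were vegt.L, vegt.S, eomes.L, eomes.S, tbxt.L, tbxt.S and tbx6.S. The copy tbx6.L was not analysed here. 5 of the 7 passed a filter on low values that left 19195 genes for testing, and tbxt.L and tbx6.S did not.

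T-box factors share a DNA-binding domain and act as sequence-specific activators or repressors. VegT is deposited as maternal mRNA at the vegetal pole of the Xenopus oocyte and starts endoderm formation and mesoderm induction, and the same locus is also transcribed in the embryo. Eomes (Eomesodermin) is switched on in mesoderm and endoderm precursors near the onset of zygotic transcription. Brachyury, the product of tbxt, marks the whole mesodermal ring of the gastrula and then the notochord and tail bud. Tbx6 is a factor of paraxial mesoderm, which forms later.

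All embryos were wild type, came from 1 clutch, and carried 5-ethynyl uridine (EU), which cells incorporate into new RNA and through which that RNA can be captured. EU was given to 1-cell embryos as 10 nl at 50 mM, which comes to about 0.5 mM in the embryo. They were kept at 22 °C. Control embryos, without inhibitor, were taken at 5 and 7.5 hours post fertilization (hpf), and a group treated from 5 hpf with cycloheximide (CHX, which blocks protein synthesis) at 0.2 mg/ml was taken at 7.5 hpf. Each group has 2 libraries, all given as blastula and as 1 batch, so p-values measure the spread between samples of 1 clutch, which may be technical. The comparisons ask which T-box RNAs changed over these hours, whether blocking translation altered their level at 7.5 hpf, and whether they left their 5 hpf level under the inhibitor.

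Values are the authors' normalized counts, rounded to whole numbers and not corrected for gene length. Library totals lay between 6680033 and 7742693. The regular spacing of low values gave an estimated depth of 2936000 to 15858000 reads, lowest in the 5 hpf libraries, where 1 read was worth about 1.849 and 2.312. In control 7.5 hpf replicate 1 a spacing of 0.351 fitted nearly as well as the 1.178 used, so its depth is uncertain. All 14 entries for whole-embryo markers (pou5f3, sox3, foxi2, h1-8, ctnnb1) were detected, though pou5f3.1.S was at 0 in both 5 hpf libraries. The sums of the 14 were 22284 to 23507 at 5 hpf, 36720 to 57929 in controls at 7.5 hpf and 34906 to 37367 in CHX. Of 18 entries for differentiated erythrocytes, muscle, neurons and liver, 11 were at 0 in all libraries and 15 never exceeded 10. Their sums were 9 to 11, 58 to 95, and 217 in both CHX libraries, where the neuronal gene elavl3.L was listed at 140 and 190 (48 and 15 in controls at 7.5 hpf). The other neuronal gene, tubb3.L, stayed low in CHX, at 12 and 0 in 1 row and 0 and 0 in the other. The muscle gene ckm.L was at 45 and 37 in controls at 7.5 hpf and 65 and 25 in CHX. In whole embryos, fewer cells of a type and less RNA per cell cannot be told apart.

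RNA of vegt was abundant at 5 hpf and higher in controls at 7.5 hpf. The normalized value of vegt.L was 913 and 895 at 5 hpf, 1604 and 1447 in controls at 7.5 hpf, and 1110 and 1051 in CHX. The value of vegt.S was 689 and 534 at 5 hpf, 1117 and 989 in controls at 7.5 hpf, and 830 and 895 in CHX. For both copies every CHX library lay between the 5 hpf and the 7.5 hpf controls, and no groups overlapped. In controls vegt.L rose 1.68-fold (log2 difference 0.75 ± 0.14 SE, adjusted p = 0.00845) and vegt.S rose 1.73-fold (0.79 ± 0.17 SE, adjusted p = 0.0199).

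How much of the captured vegt RNA was made after injection was not tested. The oocyte histone transcript h1-8.S, a maternal RNA, was also present, at 2503 and 2900 at 5 hpf and 2666 and 2669 in controls at 7.5 hpf. Among 56 tested oocyte transcripts none rose and 4 fell in controls (background 0.714% lower), with a median log2 difference of -0.14. The number that fell was 0 to 8 with 1 library left out (0 without control 5 hpf replicate 2 or CHX replicate 2, and 8, with 1 rising, without control 7.5 hpf replicate 2) and 0 to 6 under the other alternatives.

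Both vegt calls depended on the libraries used. The call for vegt.L was lost when any library other than control 7.5 hpf replicate 2 was left out: adjusted p was then 0.0601 (replicate 1) and 0.0656 (replicate 2) for the 5 hpf controls, 0.0629 for replicate 1 of the 7.5 hpf controls, and 0.0522 and 0.0524 for the CHX replicates. The call for vegt.S was lost without replicate 2 of the 5 hpf controls (0.166), replicate 1 of the 7.5 hpf controls (0.144) or either CHX replicate (0.0942 each), and also when libraries were scaled to equal totals (0.0576), in a fit of the 2 groups alone (0.0852) or with no filter on low values (0.0749). With no variance trend neither was called (0.16 and 0.208). The sum of both copies, an addition made after seeing the data, rose by 0.77 ± 0.12 SE on the log2 scale (adjusted p = 0.00452).

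At 7.5 hpf vegt.L was lower in CHX than in controls by a log2 difference of -0.50 ± 0.14 SE (95% interval -0.81 to -0.19) and an adjusted p of 0.285. The difference for vegt.S was -0.29 ± 0.17 SE (-0.67 to 0.10, adjusted p = 0.695). Set against 5 hpf, the CHX values were higher by 0.26 ± 0.14 SE for vegt.L (adjusted p = 0.439) and by 0.51 ± 0.17 SE for vegt.S (adjusted p = 0.144). In neither comparison did a vegt copy pass the test. On group means, CHX embryos reached 28.4% of the control rise of vegt.L (21% to 37.9% over pairings of single 7.5 hpf libraries). For vegt.S they reached 56.9% (43.2% to 75.1%). These and later ranges over pairings hold the 5 hpf level at its mean, so they leave out the spread at 5 hpf.

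**Figure D1:**
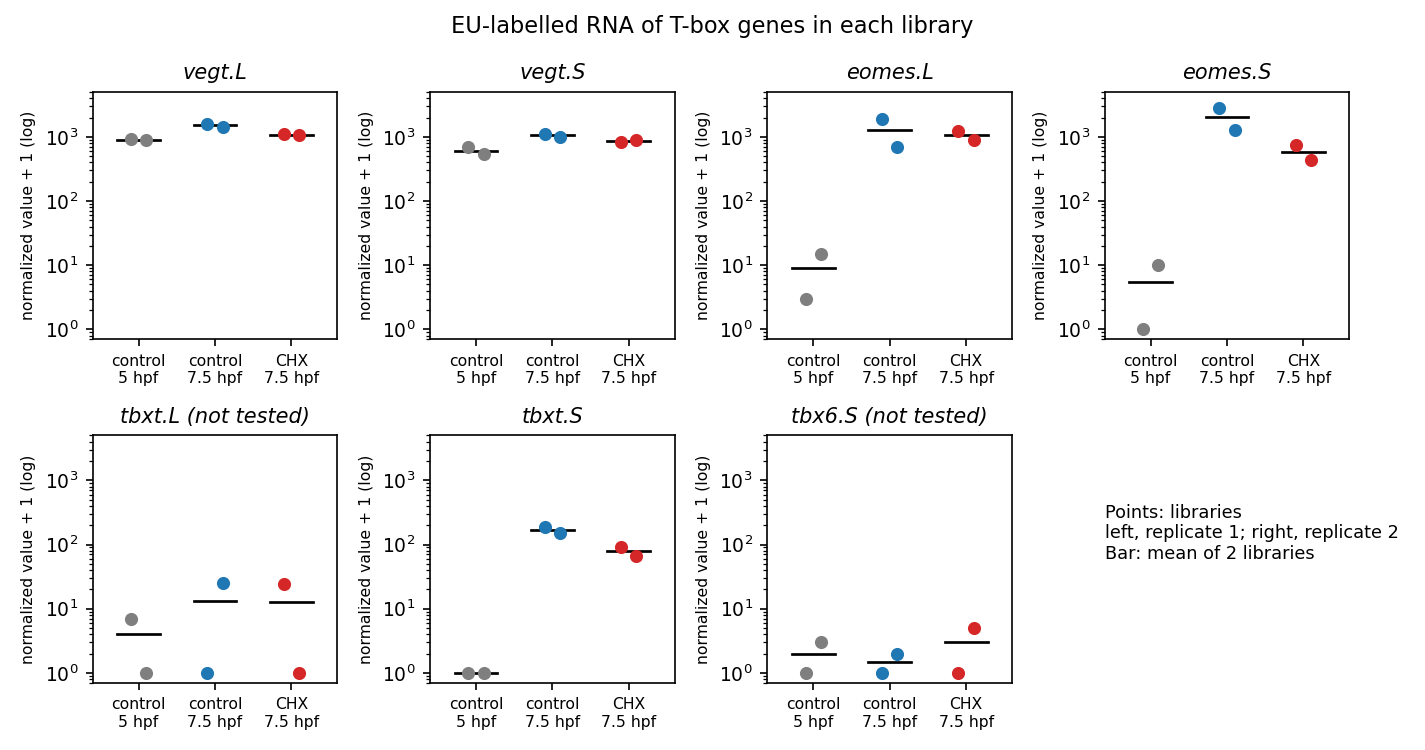
Normalized value plus 1 (log axis) of each T-box gene in every library, by group; points are libraries and bars are means of 2. The vegt copies are high at 5 hpf, the eomes copies and tbxt.S stand near 0 at 5 hpf and high in both 7.5 hpf groups, and tbxt.L and tbx6.S stay low.

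RNA of eomes went from near absence to among the larger rises of the table. The value of eomes.L was 2 and 14 at 5 hpf, 1863 and 705 in controls at 7.5 hpf, and 1228 and 898 in CHX. The value of eomes.S was 0 and 9 at 5 hpf, 2810 and 1266 in controls at 7.5 hpf, and 749 and 431 in CHX. The 5 hpf libraries were far below all others for both copies. At 7.5 hpf the CHX libraries lay within the range of the controls for eomes.L and below both controls for eomes.S.

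In controls eomes.L rose 171-fold on the log2(value + 1) scale (7.42 ± 0.65 SE, adjusted p = 7.1e-05), rank 96 by rise of 19195 genes. The S copy rose 597-fold (9.22 ± 0.84 SE, adjusted p = 9.2e-05), rank 17. These folds rest on very few reads at 5 hpf: the values of 2 and 14 for eomes.L come to about 1.08 and 6.06 reads, and the 9 for eomes.S to about 3.89. The size of the rise depended on the 5 hpf library used: without replicate 1 it was 6.26 for eomes.L and 7.56 for eomes.S on the log2 scale, and without replicate 2 it was 8.58 and 10.88. Without control 7.5 hpf replicate 1 it was 6.72 and 8.65, and without replicate 2 it was 8.12 and 9.80. Both calls held under all 18 alternatives. With the copies summed, eomes was at 2 and 23, then 4673 and 1971 in controls, and 1977 and 1329 in CHX.

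Both copies also rose from 5 hpf to 7.5 hpf in CHX. The log2 difference was 7.29 ± 0.65 SE for eomes.L (adjusted p = 8.5e-05) and 7.49 ± 0.84 SE for eomes.S (adjusted p = 3.5e-04). Without replicate 1 of the 5 hpf controls these were 6.13 and 5.83, and without replicate 2 they were 8.45 and 9.15. Without CHX replicate 1 the adjusted p was 0.063 for eomes.L and 0.103 for eomes.S; for eomes.S it was 0.0556 without CHX replicate 2 and 0.0511 with no variance trend.

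Between CHX and control at 7.5 hpf the difference was -0.13 ± 0.65 SE for eomes.L (-1.58 to 1.33, adjusted p = 0.973). It was -1.73 ± 0.84 SE for eomes.S (-3.60 to 0.15, adjusted p = 0.633). Neither passed, and the intervals leave room for sizeable differences in either direction for eomes.L. Its sign turned without control 7.5 hpf replicate 1 (0.57) and without CHX replicate 2 (0.10). CHX embryos reached 82.7% of the control mean rise of eomes.L (48% to 175% over pairings) and 28.8% of that of eomes.S (15.2% to 59%).

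The control libraries at 7.5 hpf differed more for eomes than for vegt. Replicate 1 was 2.64 times replicate 2 for eomes.L and 2.22 times for eomes.S, against 1.11 and 1.13 for vegt.L and vegt.S. Of the 1136 genes called higher in controls, the eomes copies among them, 1005 (88.5%) had more in replicate 1, with a median ratio of 1.98, while the median ratio of all genes tested was 1.02. In CHX 967 of the same 1136 genes (85.1%) also had more in replicate 1, with a median ratio of 1.39. What sets these libraries apart was not tested.

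Of the summed tbxt.L and tbxt.S value at 7.5 hpf, most was tbxt.S, and tbxt.L made up 0% to 20.2% in each library. Rows of tbxt.2 lie outside this sum. Among them, tbxt.2.S was at 169 and 20 in controls at 7.5 hpf and 101 and 54 in CHX, so the main source of tbxt RNA is not settled. The value of tbxt.S was 0 and 0 at 5 hpf, 185 and 152 in controls at 7.5 hpf, and 91 and 66 in CHX. The groups did not overlap, and both CHX libraries lay below both controls. It rose in controls (adjusted p = 2.1e-04) and in CHX (adjusted p = 5.6e-04, or 0.0787 without CHX replicate 1), and since it was listed at 0 at 5 hpf no fold is given. A count of 0 there allows values up to 5.55 and 6.94, the worth of 3 reads in the 5 hpf libraries (counting error only). CHX differed from control at 7.5 hpf by -1.10 ± 0.77 SE (-2.80 to 0.60, adjusted p = 0.737), and CHX embryos reached 46.6% of the control mean rise (35.7% to 59.9% over pairings).

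The L copy of tbxt was listed at 6 and 0 at 5 hpf, 0 and 24 in controls at 7.5 hpf, and 23 and 0 in CHX. In each group 1 library held all of its RNA, and every pair of groups overlapped. The 24 and 23 come to about 37 and 35.4 estimated reads, while the other library of the same group was at 0. Its mean of 8.833 was under the filter, and in a fit with no filter (32268 genes) its control difference was 0.92 ± 2.16 SE (adjusted p = 0.905).

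RNA of tbx6.S was at the limit of detection. Its value was 0 and 2 at 5 hpf, 0 and 1 in controls at 7.5 hpf, and 0 and 4 in CHX. No group stood apart from another. With no filter its control difference was -0.29 ± 1.11 SE (adjusted p = 0.981), so a change was not detectable at this depth.

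Of the 5 genes tested, 5 rose in controls from 5 to 7.5 hpf, where 5.92% of all genes rose and 0.714% fell. From 5 hpf to 7.5 hpf in CHX 3 of 5 rose (eomes.L, eomes.S and tbxt.S), where 5.76% of all genes rose and 0.255% fell. Those 3 had 5 hpf means of 8, 4.5 and 0, under the filter of 11.8, and passed it through the 7.5 hpf libraries. They could hardly have been called lower than at 5 hpf, which limits both counts. In both comparisons all 5 had both later libraries above both 5 hpf libraries, as 25.6% of all genes did in controls and 26.7% in CHX. Between CHX and control at 7.5 hpf 0 of 5 were called by limma (background 0.547%, with 0.198% higher and 0.349% lower), and 1 (vegt.L) had an unadjusted p under 0.05. In that comparison 4 of 5 had both CHX libraries below both controls, as 18.1% of all genes did. Each pair of comparisons shares a group of libraries, so their values stand side by side and are not independent.

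**Figure D2:**
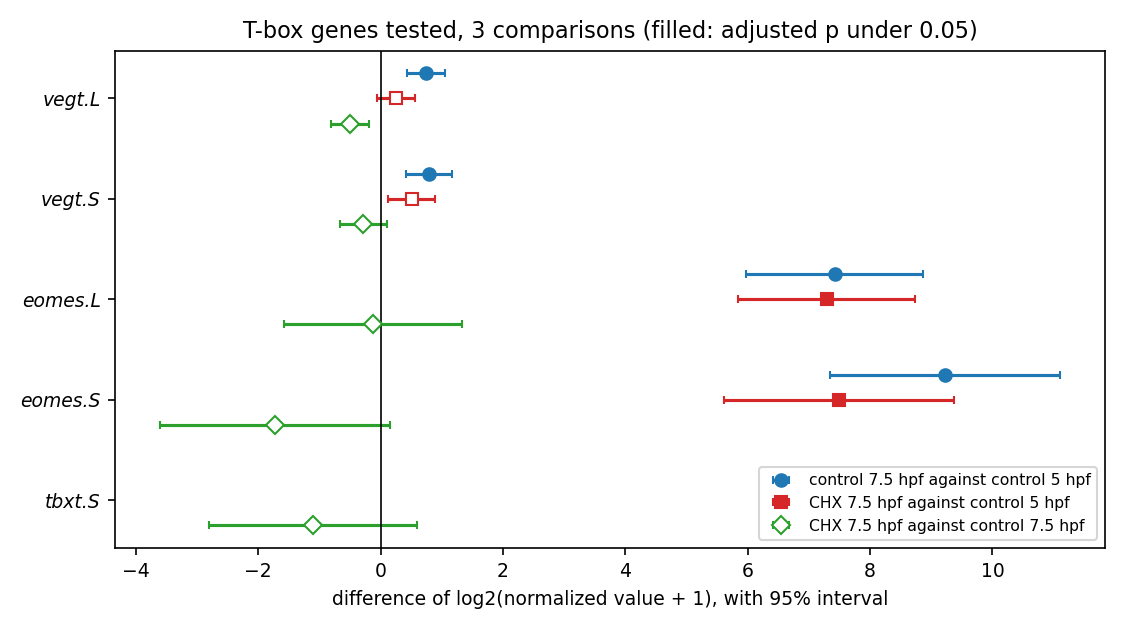
Difference of log2(normalized value + 1) for the 5 tested genes, with 95% intervals from limma; filled symbols have an adjusted p under 0.05. The eomes copies lie far above 0 in both comparisons with 5 hpf (7.29 to 9.22), and all 5 differences of CHX from control at 7.5 hpf lie below 0 without passing the test; tbxt.S is not drawn against 5 hpf, where it was listed at 0.

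The homeologs were then set against each other, as the L share of the summed L and S value. The share of vegt.L was 57% and 62.6% at 5 hpf, 58.9% and 59.4% in controls at 7.5 hpf, and 57.2% and 54% in CHX. It stayed above 50% in each library, and the control groups overlapped. The share of eomes.L was 39.9% and 35.8% in controls at 7.5 hpf, and 62.1% and 67.6% in CHX. The S copy was thus the higher in both control libraries and the L copy in both CHX libraries. At 5 hpf the eomes sums of 2 and 23 were too small for a share to be read.

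The test of the eomes shift did not pass. The log2 difference L minus S was 1.60 ± 0.46 SE higher in CHX than in control (0.55 to 2.66), with an adjusted p of 0.825 over 5956 homeolog pairs. It ranked 59 among them by p. None of the pairs was called by limma in this comparison (0%), 338 had an unadjusted p under 0.05, and in 17.9% of pairs both CHX libraries lay above both controls. From 5 to 7.5 hpf in controls the eomes difference fell by 1.80 ± 0.46 SE (adjusted p = 0.167, with 0.688% of pairs called). That value had an adjusted p of 0.028 when the variance trend followed the lower copy, a setting chosen after seeing the data. For CHX against 5 hpf it was -0.20 ± 0.46 SE (adjusted p = 0.972, 0.672% of pairs called). The 5 hpf side of both differences rests on about 1.08 and 6.06 reads of eomes.L and 0 and 3.89 of eomes.S. These are too few for the balance of the copies at 5 hpf to be read, so both differences are uncertain.

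For vegt the L minus S difference moved by -0.04 ± 0.18 SE in controls (adjusted p = 0.963) and by -0.21 ± 0.18 SE between CHX and control (adjusted p = 0.884). For tbxt it moved by -6.48 ± 2.00 SE in controls (adjusted p = 0.261), a value that depends on the pseudocount because tbxt.S was listed at 0 at 5 hpf. Reads shared by near-identical L and S transcripts may be split between copies by the counting, so each copy's level is less certain than their sum.

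**Figure D3:**
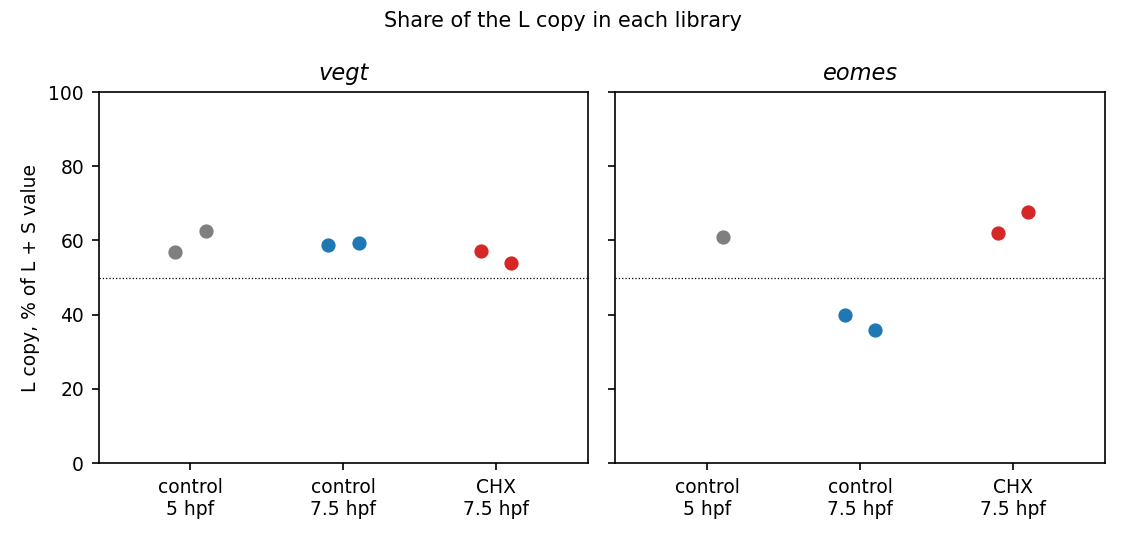
Share of the L copy in the summed L and S normalized value (percent) of vegt and eomes in each library; each point is 1 library and the dotted line marks 50%. The share of eomes.L is 35.8% to 39.9% in controls at 7.5 hpf and 62.1% to 67.6% in CHX, while that of vegt.L stays between 54% and 62.6%. The eomes library with a sum of 2 is not drawn, and the eomes point at 5 hpf rests on a sum of 23, too small for a share to be read.

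Genes around these factors were described from lists chosen with earlier results of these data known. Some genes stand on several lists (35 in all), and the shares of all genes called, given above, are the background. In controls 38 of 46 tested genes on the list of reported VegT and Eomes targets rose and 0 fell, with a median log2 difference of 5.54 (all genes 0.03). The median was 4.86 with the 16 genes listed at 0 at 5 hpf set to the worth of 3 reads in each library. Those 16 passed the filter through later libraries. They could hardly have been called lower than at 5 hpf, which limits the count of 38. The same holds for others near 0 at 5 hpf, such as bix1.2.S (0 and 9) and mixer.L (0 and 18). Without control 7.5 hpf replicate 1 the count was 25.

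The homeobox genes mix1 and bix1, activated in mesendoderm, were among those with the smallest adjusted p. The value of mix1.L was 35 and 42 at 5 hpf, 3610 and 1697 in controls at 7.5 hpf, and 725 and 546 in CHX. It rose by 5.98 ± 0.32 SE in controls (adjusted p = 4.8e-06). The value of bix1.3.S was 13 and 16, then 2504 and 1372 in controls, and 803 and 596 in CHX, a rise of 6.91 ± 0.31 SE in controls (adjusted p = 2.2e-06) and 5.49 ± 0.31 SE in CHX (adjusted p = 6.6e-06). For both genes the CHX libraries lay below the controls and far above 5 hpf. The BMP antagonist chrd.1.S was listed at 0 and 0, then at 904 and 355 in controls and at 268 and 198 in CHX.

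From 5 hpf to CHX 38 of 46 targets rose and 0 fell (median 4.97, or 3.99 with zeros at 3 reads), a count that was 7 without CHX replicate 1 and 19 without CHX replicate 2. Of the 46 targets, 3 passed the filter only through the CHX libraries. The 16 listed at 0 at 5 hpf, and others near 0 there, could hardly have been called lower here either, which limits this count of 38. Between CHX and control at 7.5 hpf the median was -0.52, and mix1.L alone was called. It was lower by a log2 difference of -1.97 ± 0.32 SE (adjusted p = 0.0261). That call was kept in 1 of 6 fits that each left out a library, the fit without control 7.5 hpf replicate 2 (0.0185); elsewhere adjusted p reached 0.756.

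The list of reported Brachyury targets and paraxial mesoderm genes was mixed. In controls 16 of 43 rose and 0 fell, with 8 without control 7.5 hpf replicate 1. In CHX against 5 hpf 23 rose and 0 fell, with 3 without CHX replicate 1 and 8 without CHX replicate 2. Of the 43 genes, 10 passed the filter on low values only through the CHX libraries, so no median is given. For those 10 the filter itself favoured a rise in CHX, and the count of 23 cannot be read against the background. Of the 43, 13 were listed at 0 in both 5 hpf libraries and could hardly have been called lower than there. That limits the count of 16 in controls as well as the count of 23. Between CHX and control the Notch ligands dlc.L and dll1.L were called higher. No call on this list in that comparison remained when any 7.5 hpf library was left out.

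The value of dlc.L was 2 and 7 at 5 hpf, 67 and 97 in controls at 7.5 hpf, and 1909 and 1105 in CHX (4.15 ± 0.55 SE above control, adjusted p = 0.0154). The value of dll1.L was 6 and 5, then 92 and 43 in controls and 569 and 515 in CHX (3.08 ± 0.53 SE, adjusted p = 0.0367). The CHX libraries of both ligands lay above every other library. With 1 library of the 7.5 hpf groups left out, adjusted p was 0.0515 to 0.805 for dlc.L and 0.0811 to 0.922 for dll1.L. The notochord homeobox gene not.S was at 37 and 51, then 2344 and 937 in controls and 2655 and 1656 in CHX, rising by 5.06 ± 0.38 SE in controls (adjusted p = 2.7e-05) and 5.56 ± 0.38 SE in CHX (adjusted p = 1.5e-05).

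Of 40 tested inducers and receptors of mesoderm, 12 rose and 1 fell in controls (median 0.44), with 7 rising without control 7.5 hpf replicate 1. Relative to 5 hpf, 9 rose and 1 fell in CHX (median 0.68), with 2 rising without CHX replicate 1 and 2 without CHX replicate 2. Of the 40, 3 passed the filter only through the CHX libraries. With the 5 listed at 0 at 5 hpf set to the worth of 3 reads, the medians were 0.44 in controls and 0.49 in CHX. Between CHX and control 0 were called (median -0.02). The gene foxh1.2.L, of the Smad partner family FoxH1, was at 30 and 42, then 3632 and 1622 in controls and 1722 and 1285 in CHX. It rose by 6.06 ± 0.34 SE in controls (adjusted p = 5.7e-06) and by 5.35 ± 0.34 SE in CHX (adjusted p = 1.0e-05). The ligand gene fgf8.L was at 9 and 14, then 886 and 501 in controls and 890 and 454 in CHX, and it rose by 5.77 ± 0.41 SE in controls (adjusted p = 1.9e-05).

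The L and S copies of the common Smad gene smad4.1 were called in opposite directions in controls. The L copy, smad4.1.L, was among the 12 that rose (adjusted p = 0.0193). That call was lost with no filter on low values (0.0597), with no variance trend (0.0633) and in a fit of the 2 groups alone (0.117). It was also lost in most fits that left out 1 library, so the opposite directions are not firm. The S copy, smad4.1.S, was the 1 that fell. Its value was 8557 and 6096 at 5 hpf, 2087 and 1864 in controls at 7.5 hpf, and 2173 and 3156 in CHX. The difference for smad4.1.S in controls was -1.87 ± 0.20 SE (adjusted p = 2.8e-04, or 0.0571 with no variance trend).

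Most corepressors and regulators of T-box factors did not pass. Of 20 tested, 2 rose in controls (zeb2.L and sall1.L; median 0.02; 1 without control 7.5 hpf replicate 1 and 4 without replicate 2), 0 were called between CHX and control (median -0.01), and 3 rose and 1 fell in CHX against 5 hpf (median -0.09). Without CHX replicate 1 that last comparison called 0 of 20, and without CHX replicate 2 it called 1. The repressor zeb2.L was listed at 0 and 0, then at 99 and 49 in controls and 343 and 190 in CHX.

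**Figure D4:**
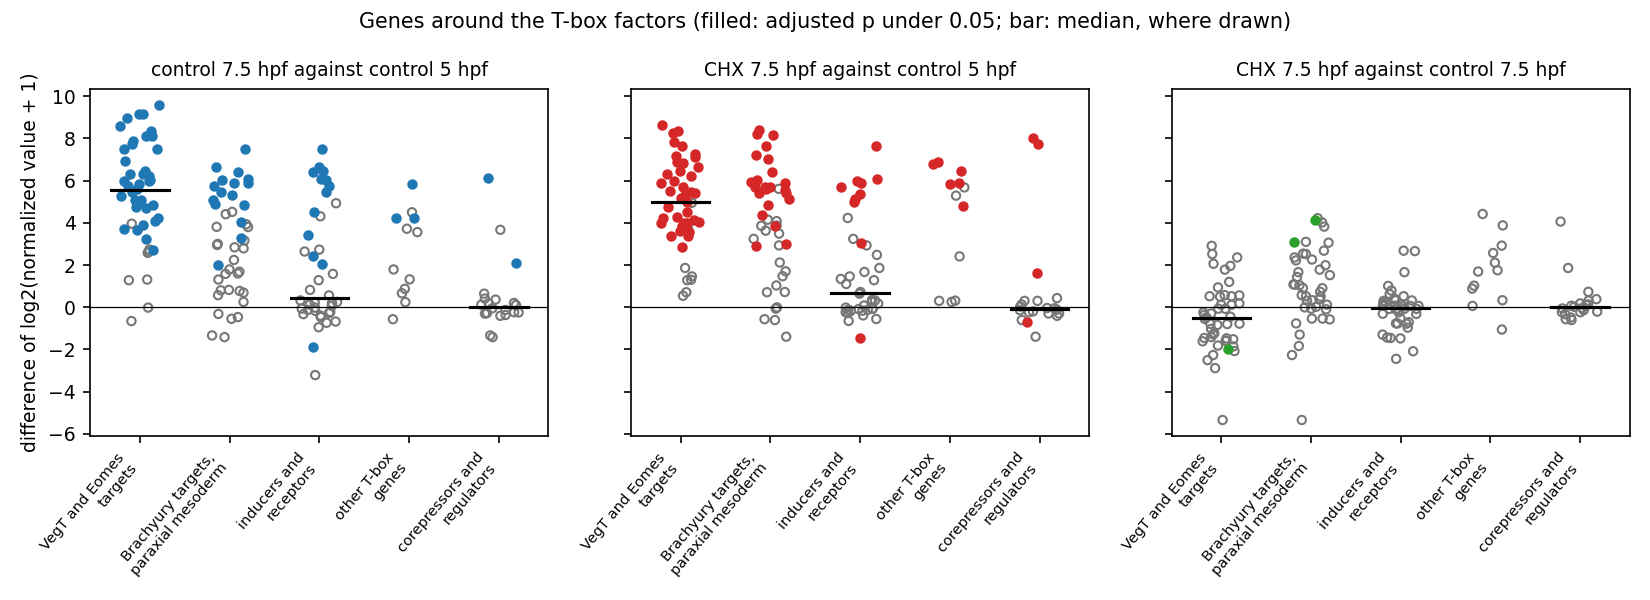
Difference of log2(normalized value + 1) for each tested gene of 5 lists in the 3 comparisons; filled points have an adjusted p under 0.05 and bars are medians, not drawn for the 2 lists with many genes that passed the filter only through the CHX libraries. Reported VegT and Eomes targets have medians of 5.54 in controls and 4.97 in CHX against 5 hpf and of -0.52 between CHX and control; genes listed at 0 at 5 hpf are drawn on the log2(value + 1) scale.

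Among 25 rows of other T-box genes, 5 were at 0 in all libraries and 12 passed the filter, 7 of them only through the CHX libraries: over the 4 control libraries the means of tbx1.S (9), tbx22.S (9), tbx3.S (11.75), tbx3.L (2.75), tbx2.S (2.75), tbxt.2.L (10) and tbx4.S (11.5) lay under it. Since those genes were admitted for being high in CHX, no count of direction or median is given between CHX and control. In controls tbx1.L, tbx1.S and tbx22.S rose and 0 fell. These genes were listed at 0 in both 5 hpf libraries and could hardly have been called lower than there. The calls of tbx1.S and tbx22.S were lost with a pseudocount of 5 (adjusted p = 0.0968 and 0.12 by limma). They were also lost in a fit of the 2 groups alone (0.0785 and 0.0813). In CHX against 5 hpf 6 rose: tbx1.L, tbx1.S, tbx2.L, tbx3.S, tbx22.S and tbxt.2.S. Of these, tbx1.S, tbx3.S and tbx22.S were admitted only through CHX, so this count cannot be read against the background. Without CHX replicate 1 or 2 none of the 12 was called there. In controls the count was 1 without replicate 2 of the 5 hpf controls, replicate 1 of the 7.5 hpf controls, or either CHX replicate, and the call of tbx1.L was kept whichever library was left out (adjusted p up to 0.0359).

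Between CHX and control at 7.5 hpf 0 of 12 were called. The value of tbx3.S was 0 and 2 at 5 hpf, 34 and 11 in controls at 7.5 hpf, and 184 and 129 in CHX. The value of tbx2.L was 4 and 0, then 47 and 17 in controls and 142 and 112 in CHX. Both genes encode T-box repressors. The CHX libraries of tbx2.L were the highest, without passing the test against control (adjusted p = 0.626). For tbx3.S that order was tied to its admission through the CHX libraries and cannot be read as a result. The gene tbx1.L, a factor of pharyngeal mesoderm in vertebrates, was at 0 and 0, then 82 and 39 in controls and 97 and 139 in CHX. The elavl3.L values given above were also highest in CHX, and their part in these values was not tested. The largest T-box RNA outside the 4 factors was mga.L, whose product pairs with Max: 1015 and 1104, then 1131 and 1380 in controls and 1324 and 1288 in CHX, with a control difference of 0.24 ± 0.15 SE (adjusted p = 0.431).

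**Figure D5:**
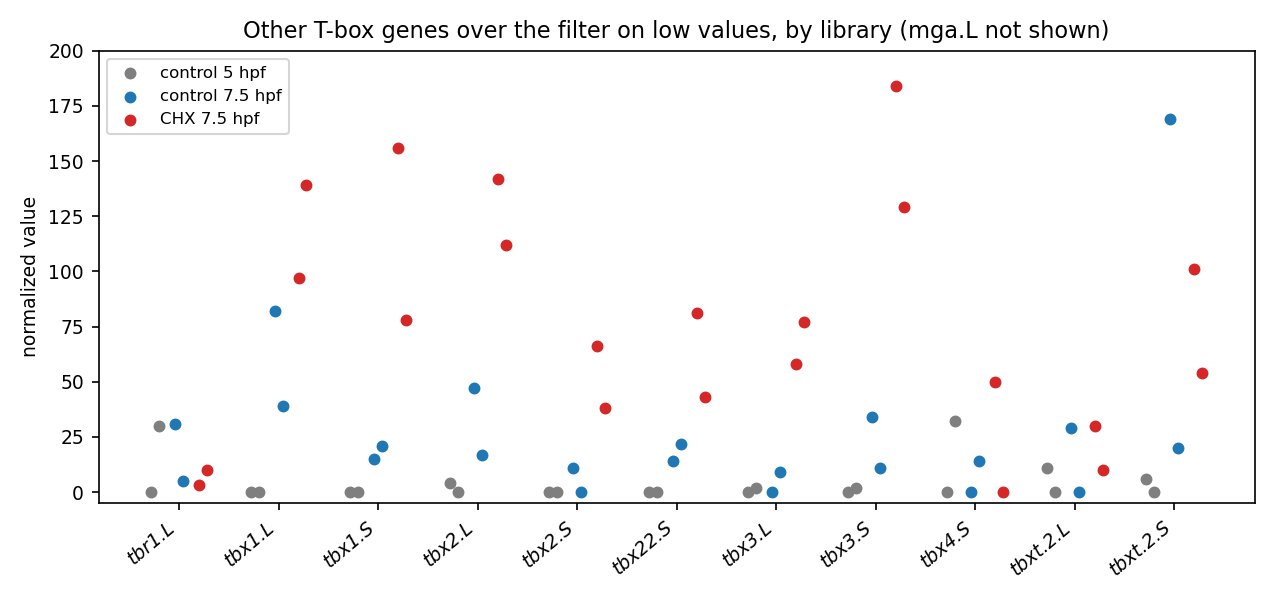
Normalized value of the other T-box genes that passed the filter, by library; mga.L (1015 to 1380) is not shown. Of the genes shown, tbx1.S, tbx2.S, tbx3.L, tbx3.S, tbx4.S, tbx22.S and tbxt.2.L passed the filter only through the CHX libraries. Where their CHX points lie is tied to that and cannot be read as a result. Of the others shown, the CHX libraries of tbx1.L and tbx2.L lie above both controls at 7.5 hpf, and those of tbxt.2.S and tbr1.L do not. No gene shown was called between CHX and control. For tbxt.2.S, 1 control library at 169 lies above all others.

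In the RefSeq gene table, tbxt.L has as a neighbour on chromosome 5L a further tbxt copy, tbxt.2.S, despite its S suffix. Its value was 6 and 0 at 5 hpf, 169 and 20 in controls at 7.5 hpf, and 101 and 54 in CHX, and its control rise of 4.50 ± 1.21 SE did not pass (adjusted p = 0.0542). The call for CHX against 5 hpf (4.82 ± 1.21 SE, adjusted p = 0.0426) was lost without control 5 hpf replicate 2 (0.207), CHX replicate 1 (0.528) or CHX replicate 2 (0.272). The genes beside the other factors, crkl for vegt, slc4a7 for eomes and ppp4c for tbx6.S, were called in no comparison. For example slc4a7.S was at 200 and 169, then 107 and 124 in controls and 144 and 147 in CHX.

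The profiles most like each factor were found by root mean square distance of centred log2 values over the 6 libraries. Only genes with a symbol, not a locus identifier, were taken as nearest. The rank of a partner copy counts all tested genes, with or without a symbol. For eomes.S the nearest was bix1.2.S (0.27), followed by btg5.3.L (0.60) and mixer.L (0.62), and its partner eomes.L ranked 10 (0.87). For eomes.L the nearest were cass4.L (0.29), btg5.3.L (0.37) and the LIM homeobox gene lhx5.S (0.44), and eomes.S ranked 66. The copies of eomes were therefore each closer to other genes than to each other. The same held for vegt, whose copies ranked 158 and 112 for each other, so it is not particular to eomes. The eomes distances also rest in part on very few reads in the earlier controls. There eomes.L was at 2 and 14 and eomes.S at 0 and 9, the latter the same values as bix1.2.S. The value of bix1.2.S was 0 and 9, then 2593 and 982 in controls and 447 and 316 in CHX.

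For tbxt.S the nearest were iqsec3.S (0.21), the keratin gene krt70.S (0.33) and pnhd.L (0.38), all at 0 at 5 hpf. For vegt.L they were srp19.L (0.05), fbxo34.S (0.06) and copg1.S (0.06), with vegt.S at rank 158 (0.16). For vegt.S they were ccdc149.S (0.07), alkbh4.L (0.08) and plpbp.L (0.08), with vegt.L at rank 112. The smaller distances of vegt go with its smaller changes. For tbxt.L the nearest gene was lamtor5.S (0.98) and for tbx6.S mars2.L (0.30). The values of tbx6.S never exceeded 4, and those of tbxt.L stood above 0 in 1 library of each group.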

How the data were processed

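EU-labelled RNA was captured by a click reaction and sequenced as total RNA after ribosomal depletion, per the labels' protocols. Salmon 0.12.0 and DESeq2 are named in the submitters' processing notes; build, annotation and strand use: not given in the sources used here. As deposited, the values count as a score: normalized counts that the authors rounded to whole numbers; this reading rests on the notes and on the regular spacing of the values, and whole reads were not recovered. No value column was left unused. Genes with a mean value of at least 11.8 (10 reads at the mean worth of 1.18 per read) were tested; other windows for estimating the spacing were tried, and the window up to 30 was kept because it gave the gene count of an earlier analysis. The test was limma 3.58.1 (R 4.3.3) on log2(value + 1): a model of 3 groups over 6 libraries, intensity trend, two-sided moderated tests, 3 residual degrees of freedom with a prior of 7.29, Benjamini-Hochberg adjustment over all 19195 genes, calls at an adjusted p under 0.05. Differences L minus S were fitted alike over 5956 pairs (prior 4.75). On simulated data the gene test recovered 14.9% to 20.9% of 2-fold and 53.7% to 58.2% of 4-fold changes, depending on the comparison. The pair test recovered 10.4% to 29.9% and 55.2% to 62.7%. False calls made up 2.78% to 6.6% of calls. Of 8-fold changes the gene test recovered 63.6% to 75.8%. These shares are averages over genes of all levels, simulated with a spread shared by genes of like level. In the gene test 66 or 67 genes were changed at each fold, far fewer genes than were called against 5 hpf in the data. The shares do not give the recovery for any 1 gene, and recovery may differ where more genes change. On that average most 2-fold changes would be missed, and a result that did not pass does not show that nothing changed. Tables and figures used Python 3.11.15, numpy 2.4.6, pandas 2.3.3 and matplotlib 3.10.9. Neighbouring genes come from a RefSeq gene table, whose build could not be matched to the files, so no coordinates are given. Members and lists were chosen with earlier results of these data known. All members are named. From each list, the rule admits up to 4 called genes with the smallest adjusted p per comparison and the most abundant. Other T-box genes and neighbours were also named after their values were seen, as were h1-8.S, elavl3.L, tubb3.L and ckm.L.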

Additional observations from a re-analysis of the deposited data

How the results depend on the processing

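Among 18 alternatives for each gene (pseudocounts, filters, scalings, variance models, the replicate block, 1 library left out), no called member changed sign. The count of members rising in controls (5) was 3 with no variance trend, 3 of 3 with L and S summed, and 3 to 5 with 1 library left out; it was 3 without replicate 2 of the 5 hpf controls, replicate 1 of the 7.5 hpf controls or either CHX replicate. In CHX against 5 hpf the count (3) was 0 to 3 with 1 library left out, 0 without CHX replicate 1. In CHX against control it was 0 throughout. Genes called in controls (1273) numbered 665 with no filter, 654 with no variance trend, 609 with the 2 groups alone, and 518 to 2004 with 1 library left out (518 without control 7.5 hpf replicate 1, 2004 without replicate 2, 804 without control 5 hpf replicate 1, 575 and 559 without CHX replicate 1 and 2). In CHX against control (105) they numbered 219 with a pseudocount of 5, 0 with no filter, 48 with no variance trend (43 higher, 5 lower, against 38 and 67), and 0 to 202 with 1 library left out (0 without control 7.5 hpf replicate 1 or either CHX replicate, 202 without control 7.5 hpf replicate 2). In CHX against 5 hpf (1155) they numbered 671 with no filter, 713 with no variance trend, and 70 to 1346 with 1 library left out (70 and 274 without CHX replicate 1 and 2). The L minus S difference of eomes in controls (-1.80) had an adjusted p of 0.028 with the variance trend on the lower copy, chosen after seeing the data, as were the summed copies and the list counts under each alternative. Scaling to equal totals or to oocyte transcripts moved the median of all genes in controls to -0.11 and 0.17. Where the cause of a change is not the smaller number of samples or the other set of genes, the cause was not tested.

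Across genes, deviations of replicate 1 correlated at r = 0.006 between the 5 and 7.5 hpf controls. They correlated at 0.128 between the 7.5 hpf controls and CHX, and at -0.021 between the 5 hpf controls and CHX. Of the 1136 genes called higher in controls, 88.5% had more in replicate 1 in controls at 7.5 hpf and 85.1% in CHX. Whether replicate numbers pair the samples at 7.5 hpf is therefore not settled. With the replicate number as a block, calls numbered 1500, 168 and 1352, and members called stayed at 5, 0 and 3. Depth limits tbx6.S at every time and eomes and tbxt at 5 hpf. For tbxt.L at 7.5 hpf, 1 library of each group held about 37 and 35.4 reads and the other, in CHX the deeper one, 0.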
